A study of Rattus norvegicus with 32 samples.

Results

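Thymic epithelial cells and hair follicle cells of the rat were each grafted into skin, recovered and grown again, and the cultures so obtained were set against each other on expression arrays. The comparison took the cultures made after the first transplantation: 4 thymic cultures (Clone_217, Clone_218, Clone_57 and Clone_907) and 2 hair follicle cultures (YR219P5_RC and Clone_54). These 6 cultures, with 2 arrays each, account for 12 of the 32 arrays and 6 of the 16 cultures in the series. They were picked out by their labelled tissue and number of transplantations.

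Clone_217 and Clone_218 came from thymus at embryonic day 16, Clone_57 from thymus at postnatal day 1, and Clone_907 from thymus at 4 months. Clone_907 carries the title of a clone but its label calls it a bulk culture. The follicle cultures both carry the label P5, which is not explained, and YR219P5_RC was a bulk culture while Clone_54 was a clone. Donor stage was not matched between the tissues as far as the labels go, so tissue of origin and donor stage cannot be told apart. All donors, thymic and follicle, were Sprague-Dawley rats that express an enhanced green fluorescent protein transgene throughout the body (act-EGFP). The hosts were nude mice, GFP-positive follicles were dissected from the grafted skin, and all cells were grown on irradiated 3T3-J2 mouse fibroblasts, in thymic and follicle cultures alike. Thymic and follicle cultures that had never been grafted (4 and 2 cultures) served for comparison, and 4 thymic cultures from a second transplantation are described where they bear on a gene. The ungrafted TEC donors were at embryonic day 16 (1 culture), postnatal day 1 (1 culture) and 4 months (2 cultures), and the ungrafted HF cultures carry the P5 label as well. After the second transplantation 2 TEC cultures came from embryonic day 16, 1 from postnatal day 1 and 1 from 4 months. Grafted and ungrafted TEC thus differ in their mix of donor stages, which touches every comparison between them. In the text below, TEC stands for thymic epithelial cells and HF for hair follicle cells.

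Thymic epithelium arises from the pharyngeal endoderm of the embryo and supports the maturation of T cells, a function that depends on the transcription factor Foxn1. Hair follicles arise from skin ectoderm, and the stem cells of their outer layers regrow the follicle through repeated cycles. Both epithelia hold basal cells that carry keratin 14 and p63, but simple epithelial keratins such as keratins 8 and 18 are typical of endodermal and glandular linings and not of the basal layer of skin. Rat thymic epithelial cells grown in culture were placed in a skin environment here, and the comparison asks which expression differences between the tissues of origin are present in cultures recovered after that exposure.

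A small set of genes passed the adjusted threshold between the grafted TEC and the grafted HF cultures, each with values that did not overlap. Higher in TEC were the transcription factor genes Isl1 and Hoxa5, the cyclooxygenase gene Ptgs1, the metalloreductase gene Steap2, the protease inhibitor gene Serpinb1a, the MHC class I gene RT1-T24-1 and the ganglioside synthase gene B4galnt1. Lower in TEC were Ypel4, the galectin gene Lgals9, Cyp2d1 and Chrna2. The differences ran from 13.1-fold higher for Ptgs1 to 2.41-fold lower for Ypel4. Of 15316 probe sets with 1 gene symbol, 11 passed an adjusted p of 0.05 in limma (0.0718%), with 7 higher in TEC (0.0457%) and 4 lower (0.0261%).

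Before adjustment, 2601 probe sets had p under 0.05, 664 of them higher and 1937 lower in TEC. The number of calls rested on the few cultures: it was 0 without YR219P5_RC and 0 without Clone_54. It was 2 without Clone_217, 3 without Clone_218 and 6 without Clone_907, against 10 without Clone_57. It also moved with cultures outside the comparison that share the estimate of spread, to 6 without PRE16cl11_VII, PRP1cl11_VII or PRP4mo_Cl09 and to 7 without Clone_194. A fit on the 6 cultures alone called 0 probe sets, with 2043 at an unadjusted p under 0.05.

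The scale of the arrays also bore on the direction of the counts. Array 1 of YR219P5_RC had a median log2 signal of 5.78 and array 2 of the same culture 5.42, against 5.29 to 5.55 for the arrays of the other cultures. The median log2 difference over all probe sets was -0.11 as deposited and 0.03 after each array was centred on its median. All 4 TEC values lay above both HF values for 976 probe sets (6.37%) and below both for 2934 (19.2%). After centring, these counts were 2229 and 1391, and the calls were 11 higher and 2 lower. The excess of lower values sat at low signal: among probe sets with a mean of 4 to 6, 36.5% were lower and 2.59% higher without overlap, against 10.2% lower and 9.84% higher among those with a mean over 6. Small differences below 0 at low signal therefore share their direction with much of the array.

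Isl1, a LIM-homeodomain transcription factor of pharyngeal endoderm, heart and motor neurons, had log2 signals of 6.50 in Clone_217, 6.78 in Clone_218, 6.43 in Clone_57 and 6.84 in Clone_907, against 4.30 in YR219P5_RC and 4.65 in Clone_54. Every TEC culture lay more than a log2 unit above both HF cultures, and the 4 TEC values were close together. Clone_907, from 4 months, was the highest. Ungrafted TEC read 7.69 and 7.33 at 4 months, against 6.76 at embryonic day 16 and 6.77 at postnatal day 1. The 4-month culture of the second transplantation read 7.04, against 6.06 to 6.20 in the others. With 1 or 2 cultures per stage, a link of Isl1 with donor stage was not tested. Between grafted TEC and grafted HF the log2 difference was 2.16 ± 0.29 (SE), a 4.48-fold higher signal, with a limma adjusted p of 0.0198. The call was lost without Clone_217, Clone_218, YR219P5_RC or Clone_54, and the difference stayed between 1.99 and 2.34 over all 16 fits that left out 1 culture.

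Ptgs1 encodes cyclooxygenase 1, which makes the prostaglandin precursor PGH2 from arachidonic acid. Its log2 signals were 8.63 in Clone_217, 9.52 in Clone_218, 8.76 in Clone_57 and 8.28 in Clone_907, against 5.21 in YR219P5_RC and 4.96 in Clone_54. It had the largest difference of the called genes, 3.71 ± 0.61 on the log2 scale. Its adjusted p of 0.0452 was close to the threshold, and the call held in 3 of the 16 fits that left out 1 culture, while the difference stayed between 3.47 and 3.88 in them.

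Hoxa5, a homeobox gene that sets position along the body axis, had log2 signals of 6.33, 6.95, 6.72 and 6.94 in Clone_217, Clone_218, Clone_57 and Clone_907, against 5.26 in YR219P5_RC and 4.76 in Clone_54. The lowest TEC value lay above the highest HF value by more than the spread within either group. The log2 difference was 1.72 ± 0.21 with an adjusted p of 0.00934, and among the fits that left out 1 culture the call was lost only without YR219P5_RC or Clone_54. RT1-T24-1, a rat MHC class I gene of the RT1 complex, had the smallest adjusted p, 0.00654. Its log2 signals were 6.59, 6.91, 6.97 and 6.51 in the TEC cultures, against 5.59 and 5.50 in the HF cultures, a log2 difference of 1.20 ± 0.13, and the call held in 14 of the 16 fits that left out 1 culture. Genes of this family are near-identical copies, so the probe set may read more than the named member.

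Steap2, a metalloreductase that reduces iron and copper, had log2 signals of 8.73 in Clone_217, 8.05 in Clone_218, 8.81 in Clone_57 and 9.43 in Clone_907, against 6.71 in YR219P5_RC and 7.13 in Clone_54. The difference was 1.83 ± 0.27, with an adjusted p of 0.0259, and the call held in 13 of the 16 fits that left out 1 culture. Its relative Steap1 showed a similar order, with log2 signals of 8.12, 8.32, 8.93 and 8.90 in TEC against 7.03 and 6.38 in HF, but its difference of 1.86 ± 0.34 had an adjusted p of 0.102. Serpinb1a, an inhibitor of neutrophil serine proteases, had log2 signals of 12.03, 12.16, 11.72 and 12.18 in TEC, against 10.78 in each HF culture, a difference of 1.24 ± 0.21 (adjusted p 0.0452). B4galnt1, which makes the gangliosides GM2 and GD2, had 7.62, 8.06, 7.67 and 7.72 in TEC against 6.81 and 6.83 in HF, a difference of 0.94 ± 0.15 (adjusted p 0.0357). The calls for Serpinb1a and B4galnt1 held in 3 and 6 of the 16 fits that left out 1 culture.

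The 4 genes lower in TEC were Lgals9, Ypel4, Cyp2d1 and Chrna2. Lgals9 encodes galectin-9, a secreted lectin that binds glycans on immune cells. Its log2 signals were 5.97, 5.95, 6.04 and 6.25 in TEC, against 7.42 in YR219P5_RC and 7.03 in Clone_54. The TEC values spanned a narrow range and lay below both HF values. The difference was -1.17 ± 0.18 with an adjusted p of 0.0275, and the call held in 9 of the 16 fits that left out 1 culture. A second Lgals9 probe set gave -0.47 ± 0.14 (adjusted p 0.198), the same direction without a call. Ypel4, a member of the yippee-like gene family, had log2 signals of 5.30, 5.10, 5.01 and 5.36 in TEC against 6.21 and 6.72 in HF, and a difference of -1.27 ± 0.18 (adjusted p 0.0198). This call held in 12 of the 16 fits that left out 1 culture and was lost after centring or quantile normalization.

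Cyp2d1, a cytochrome P450, had log2 signals of 4.94, 4.65, 4.96 and 4.81 in TEC against 5.82 and 5.50 in HF, a difference of -0.82 ± 0.12 (adjusted p 0.0275). The 2 arrays of Clone_217 read 5.56 and 4.31 for it, so arrays of 1 culture differed by more than the groups did, and the call held in 8 of the 16 fits that left out 1 culture. Chrna2, a nicotinic acetylcholine receptor subunit, had 3.94, 3.71, 3.91 and 3.97 in TEC against 4.43 and 4.40 in HF, a difference of -0.53 ± 0.09 (adjusted p 0.0452). Its signal was near the bottom of the array scale, and the call held in 1 of the 16 fits that left out 1 culture. Both calls were lost when arrays were the unit with the culture as a random block. The Cyp2d genes are near-identical copies, and the probe set may read several of them.

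**Figure D1:**
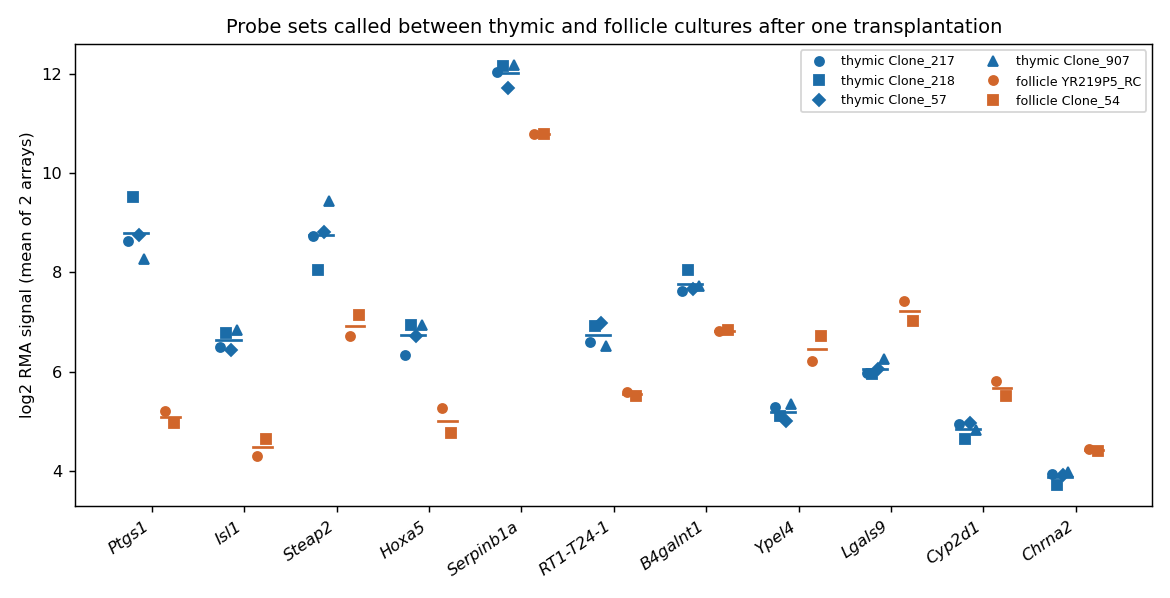
Log2 RMA signal (mean of 2 arrays) of the 11 called probe sets in each grafted culture, with TEC cultures in blue on the left of each pair and HF cultures in orange on the right, and short lines at the group means. The 7 genes on the left are higher in all 4 TEC cultures and the 4 on the right lower, and the Ptgs1 groups are the farthest apart.

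Promoters of Isl1 and Ptgs1, as genes high in every TEC culture, and of Lgals9, as the called gene with opposite signs of its tissue difference in grafted and ungrafted cultures, are shown to let the sequence be read beside the values. Each is a window of 300 bases around the RefSeq start in the rat build GRCr8, mostly before it, written 5′ to 3′ on the strand of the gene. Hoxa5 is named only. Capitals mark matches, on either strand, to the homeodomain core TAAT, the GC box GGGCGG, the CCAAT box CCAAT or the TATA box TATAAA.
Isl1, chr2:49823393-49823692, minus strand: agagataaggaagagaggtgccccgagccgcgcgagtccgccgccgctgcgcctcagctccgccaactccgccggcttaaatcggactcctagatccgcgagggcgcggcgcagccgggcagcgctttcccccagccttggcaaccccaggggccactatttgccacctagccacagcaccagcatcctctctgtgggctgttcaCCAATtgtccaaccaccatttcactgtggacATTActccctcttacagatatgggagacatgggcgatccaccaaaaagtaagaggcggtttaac
Ptgs1, chr3:39981169-39981468, plus strand: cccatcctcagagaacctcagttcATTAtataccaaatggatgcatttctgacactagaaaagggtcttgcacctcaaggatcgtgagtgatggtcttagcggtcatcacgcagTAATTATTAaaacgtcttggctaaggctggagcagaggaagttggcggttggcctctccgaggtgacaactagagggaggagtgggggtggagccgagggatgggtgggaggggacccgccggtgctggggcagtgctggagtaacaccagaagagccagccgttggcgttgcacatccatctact
Lgals9, chr10:64428021-64428320, minus strand: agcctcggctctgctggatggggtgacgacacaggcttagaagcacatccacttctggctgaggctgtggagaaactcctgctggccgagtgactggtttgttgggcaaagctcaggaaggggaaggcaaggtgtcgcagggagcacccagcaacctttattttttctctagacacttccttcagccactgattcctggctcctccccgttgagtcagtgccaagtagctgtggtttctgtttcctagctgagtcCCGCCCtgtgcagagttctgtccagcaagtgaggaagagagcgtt
Ptgs1 held 4 homeodomain core matches, some of them overlapping, and Isl1 held 1 such match with 1 CCAAT box. Lgals9 held 1 GC box and 0 homeodomain cores, and TATAAA was in 0 of these 3 windows. Of 33469 promoters of this length, 60.6% held TAAT or its complement, 37.5% a CCAAT box, 33.1% a GC box and 14.2% TATAAA. A motif match is a run of letters and was not tested as a site, and the window covers only the bases printed.

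Isl1, Hoxa5 and Ptgs1 also separated the tissues in the cultures outside the comparison. Isl1 averaged 7.14 ± 0.45 in ungrafted TEC (SD, n = 4), 6.64 ± 0.20 after the first transplantation (n = 4) and 6.36 ± 0.46 after the second (n = 4). In HF it averaged 4.36 ± 0.27 ungrafted and 4.48 ± 0.24 grafted (n = 2 each). Hoxa5 averaged 6.25 ± 0.23, 6.74 ± 0.29 and 6.94 ± 0.25 in TEC in the same order, and 4.86 ± 0.04 and 5.01 ± 0.35 in HF. Ptgs1 averaged 9.62 ± 0.36, 8.80 ± 0.52 and 8.57 ± 1.34 in TEC and 5.01 ± 0.40 and 5.09 ± 0.17 in HF. The TEC states overlapped one another for Isl1 and Ptgs1, whereas every Hoxa5 value after the second transplantation lay above the ungrafted TEC values, and no TEC culture of any state reached the HF range. The difference of differences was -0.62 ± 0.42 for Isl1, 0.33 ± 0.30 for Hoxa5 and -0.90 ± 0.87 for Ptgs1, and the adjusted p was 0.833, 0.857 and 0.86.

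**Figure D2:**
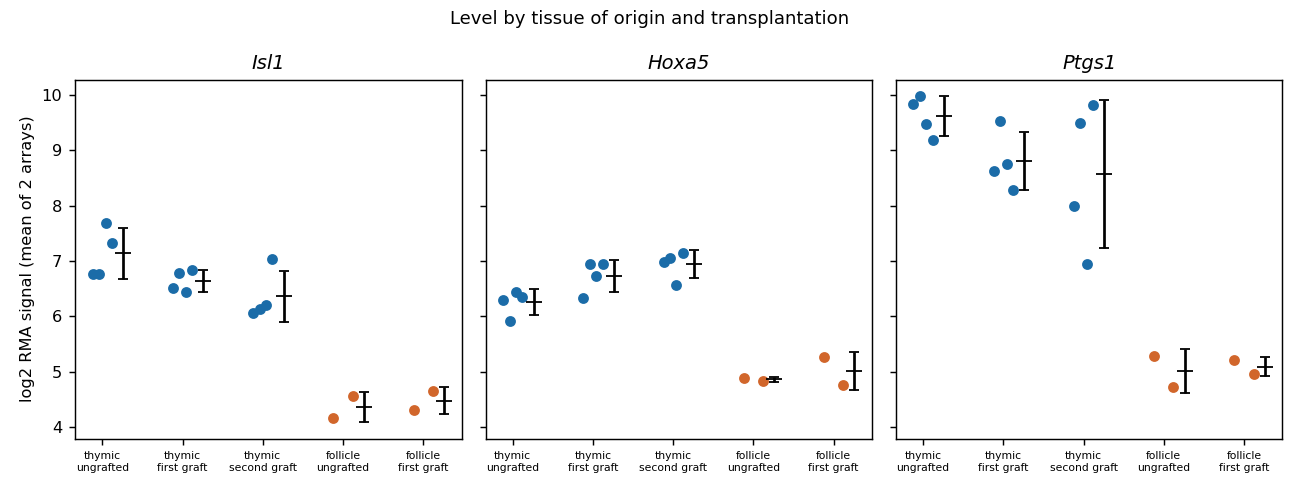
Log2 RMA signal of Isl1, Hoxa5 and Ptgs1 in all 16 cultures by tissue and transplantation state, with points for cultures, and a dash and bar for the group mean and SD. The TEC groups lie above both HF groups in each panel, and Ptgs1 spreads widely after the second transplantation.

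More probe sets passed the adjusted threshold between the ungrafted tissues than between the grafted ones. The order was the reverse for an unadjusted limma p under 0.05, with 2066 ungrafted and 2601 grafted. Between 4 ungrafted TEC and 2 ungrafted HF cultures, 238 probe sets were called (1.55%), 148 higher in TEC (0.966%) and 90 lower (0.588%). After centring these were 171 and 61. The ungrafted count rested on single cultures too, at 18 without YR219P5_Bulk_V and 375 without YR219P5cl7. It lay between 113 and 154 without any 1 of the 4 ungrafted TEC cultures. All 7 genes higher in grafted TEC were also called higher in ungrafted TEC, and 0 of the 4 lower ones were called there. The shared calls make up 63.6% of the grafted calls and 2.94% of the ungrafted ones. No culture is in both comparisons, but both use the same estimate of spread.

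Most genes that separated the ungrafted tissues kept their direction after grafting. Of the 148 probe sets called higher in ungrafted TEC, 136 (91.9%) had a positive difference after grafting, against 33.3% of all probe sets tested. All 4 grafted TEC cultures lay above both HF cultures for 78 of them (52.7%), against 6.37% of all. Of the 90 called lower, 83 (92.2%) had a negative difference, against 66.7% of all, and 45 (50%) lay below HF without overlap, against 19.2% of all. The median difference of the 148 was 0.41 grafted and 1.29 ungrafted, and that of the 90 was -0.34 grafted and -1.06 ungrafted. The ungrafted values chose these probe sets, so their ungrafted medians are a description only. The smaller grafted medians can follow from that choice and do not measure a change with grafting. After quantile normalization the non-overlapping counts were 88 (59.5%) and 40 (44.4%), against 8.83% and 12.6% of all.

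**Figure D3:**
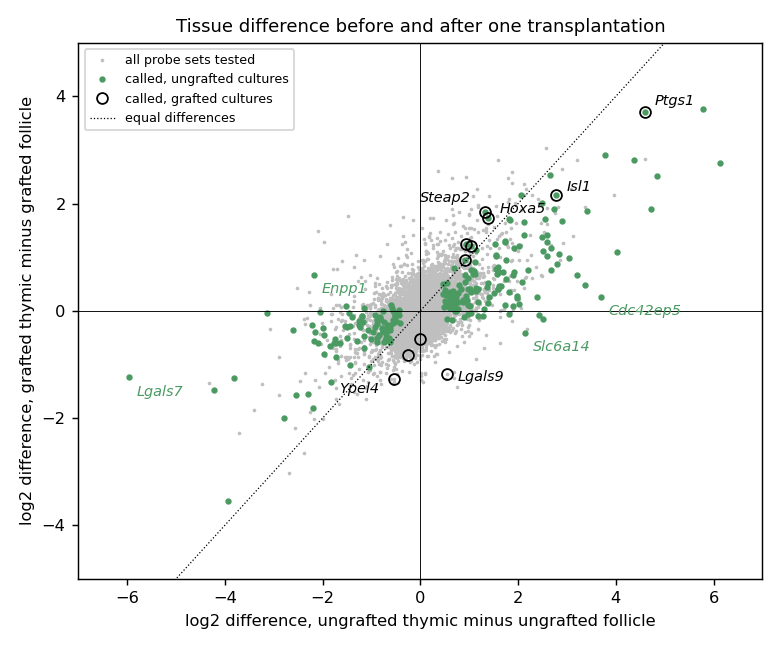
Log2 difference between TEC and HF for each of 15316 probe sets, in grafted cultures (vertical axis) against ungrafted cultures (horizontal axis). Green points are the 238 ungrafted calls and open circles the 11 grafted calls. Ptgs1 and Isl1 lie a little below the dotted line of equal differences, and Lgals9 lies in the quadrant of opposite signs.

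Among the 15 largest ungrafted calls in each direction, the grafted values went in different ways. These genes were picked by their ungrafted difference after the values were seen. Rgs2, a regulator of G protein signalling, had log2 signals of 8.80, 10.46, 7.43 and 9.33 in grafted TEC against 6.23 and 5.97 in grafted HF. Its difference was 2.90 ± 0.82 grafted (adjusted p 0.173) and 3.78 ungrafted. Lrat, which esterifies retinol for storage, had 5.21, 3.93, 4.98 and 4.84 in grafted TEC against 8.53 and 8.04 in grafted HF. Its difference of -3.55 ± 0.74 was the largest below 0 among all probe sets tested but did not pass the threshold (adjusted p 0.134), and it was -3.93 ungrafted. Rassf4 and the Wnt-modulating receptor gene Lgr4 were likewise lower in all 4 TEC cultures, with grafted differences of -2.01 ± 0.45 and -1.81 ± 0.42 and ungrafted ones of -2.78 and -2.20.

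For other genes the groups overlapped after grafting. Cdc42ep5, an effector of the GTPase Cdc42 in the actin cytoskeleton, had 6.38, 8.38, 7.13 and 6.91 in grafted TEC against 7.20 and 6.68 in grafted HF. In ungrafted cultures it had 10.31 to 11.14 in TEC against 7.10 and 6.80 in HF. Its difference was 0.26 ± 0.48 grafted and 3.70 ± 0.48 ungrafted. Lgals7, a galectin of stratified epithelium, had 11.44, 11.18 and 11.42 in grafted Clone_217, Clone_57 and Clone_907 but 6.94 in Clone_218, against 11.37 and 11.61 in grafted HF. Its ungrafted difference was -5.96, and only Clone_218 among the grafted TEC cultures stayed far below HF. Nedd9, a scaffold of focal adhesions, had a difference of -0.04 ± 0.57 grafted and -3.14 ungrafted.

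The difference of differences, which tests whether the tissue difference itself changed with grafting, called 0 of 15316 probe sets in limma (0%), with 866 at an unadjusted p under 0.05. Without YR219P5cl7 it called 75, without PRP4mo_bulk it called 1, and the other fits that left out 1 culture called 0. Among the 5 smallest p-values, Lgals9 had -1.72 ± 0.25 (adjusted p 0.125): its values were 7.13, 6.76, 6.44 and 6.90 in ungrafted TEC against 6.14 and 6.38 in ungrafted HF, so TEC was above HF before grafting and below it after. Enpp1, an ectoenzyme that makes pyrophosphate, had 10.06, 9.72, 8.64 and 9.76 in grafted TEC against 8.89 and 8.87 in grafted HF, and 7.04, 6.87, 7.53 and 6.65 in ungrafted TEC against 9.42 and 8.97 in ungrafted HF. The values for ungrafted TEC all lay below every other culture named here, and the difference of differences was 2.84 ± 0.53 (adjusted p 0.518). Those of Rell2, Cdc42ep5 and the amino acid transporter gene Slc6a14 were -1.16 ± 0.21, -3.44 ± 0.68 and -2.55 ± 0.52, with adjusted p of 0.518, 0.619 and 0.619.

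The TEC cultures were not a uniform group. Over all probe sets, with arrays centred, the root mean square (RMS) log2 difference of Clone_57 was 0.37 from YR219P5_RC and 0.37 from Clone_54, but 0.49 to 0.50 from the other TEC cultures. The other 3 TEC cultures differed from one another by 0.34 to 0.43 and from the HF cultures by 0.40 to 0.58. The HF cultures differed from each other by 0.30. Clone_57 therefore lay nearer to both HF cultures than to any other TEC culture on this measure, while Clone_217 lay about as near to Clone_54 as to Clone_218, at 0.40 and 0.42. Clone_907 likewise differed by 0.42 from Clone_54 and by 0.43 from Clone_218.

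To place each TEC culture without letting it choose the genes, probe sets were taken whose other 3 TEC values did not overlap HF and lay at least 1 log2 unit away in the mean. Clone_57 was nearer to the HF mean than to the mean of the other TEC cultures for 291 of 409 such probe sets (71.1%). The shares were 30.1% for Clone_217, 20.3% for Clone_907 and 10.4% for Clone_218. After quantile normalization they were 68.8%, 28.4%, 19.5% and 11.8%. These are descriptions with no test, since the probe sets of each culture differ in number and share the HF values. Clone_57 is also the only one of the 6 cultures from postnatal day 1, and whether donor stage or the clone goes with this was not tested.

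**Figure D4:**
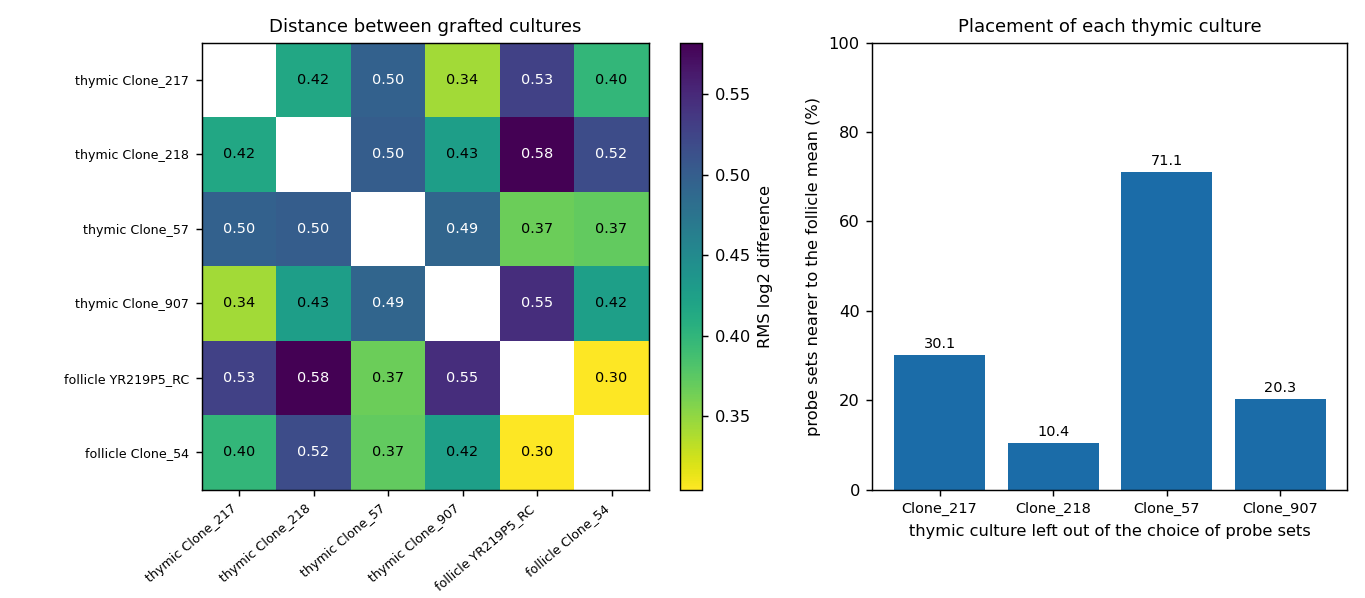
Left, RMS log2 difference between each pair of grafted cultures over 15316 probe sets with arrays centred on their medians. Right, percent of probe sets, chosen without the culture named, for which that TEC culture lay nearer to the HF mean than to the other TEC cultures. Clone_57 stands out at 71.1% and at 0.37 from both HF cultures.

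The genes for which Clone_57 lay nearer to HF included epithelial keratins. Krt8, a simple epithelial keratin, had log2 signals of 9.61, 10.82 and 9.46 in Clone_217, Clone_218 and Clone_907 and 7.14 in Clone_57, against 5.45 and 5.55 in HF, so Clone_57 lay between the groups and above both HF cultures. Krt19 had 7.69, 11.21 and 10.20 in the same 3 cultures and 6.17 in Clone_57, against 6.41 and 5.61 in HF. Serpinb7, a serpin of stratified epithelia, and Selenop, which carries selenium, had 6.35 and 4.57 in Clone_57 against HF means of 6.0 and 4.58, while the means of the other TEC cultures were 9.55 and 8.04. In the opposite direction Tfap2b, an AP-2 transcription factor, had 7.0 in Clone_57 and a mean of 4.53 in the other TEC cultures, against 6.98 and 7.02 in HF. Palmd had 7.26 in Clone_57 and 4.67 in the others, against 8.53 and 8.15 in HF. After the second transplantation the postnatal day 1 culture, Clone_194, had 7.61 for Krt8, against 9.09 to 10.21 in the other cultures of its group. For Tfap2b it had 7.21, against 4.19 to 5.22. Its Krt19, at 7.60, lay within the range of the others. The ungrafted postnatal day 1 clone had 10.76 for Krt8 and 4.25 for Tfap2b. The other ungrafted TEC cultures had 11.24 to 11.53 and 4.10 to 4.53. A link of these genes with donor stage was not tested.

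Other genes placed Clone_57 with the TEC cultures. Ptgs1 was 3.67 log2 units above the HF mean in Clone_57 and 3.72 above it in the mean of the other 3. Aqp3, a water and glycerol channel, had 10.84 in Clone_57 and 10.45 in the mean of the others, against 8.08 and 8.29 in HF. Timp1, an inhibitor of matrix metalloproteinases, had 8.33 in Clone_57 and 8.71 in the others, against 7.0 and 5.29 in HF. Lrat, Il36rn and Rassf4 were near the level of the other TEC cultures in Clone_57, at 4.98, 5.43 and 4.63 against HF means of 8.29, 7.73 and 6.67. These examples were chosen after their values were seen.

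The labels were checked against gene lists of the tissues, and each list is given beside the median of all probe sets, -0.11, and the non-overlapping shares of 6.37% higher and 19.2% lower. After quantile normalization those shares over all probe sets were 8.83% and 12.6%, and list counts on that scale are to be read beside them. Of 15 regulators of the thymus and pharyngeal pouches, 10 were measured; 1 was called (Isl1), 3 were higher without overlap and 4 lower, and the median difference was -0.08. Pax9, a pharyngeal pouch transcription factor, had 8.30, 8.68, 7.53 and 8.48 in TEC against 6.28 and 6.43 in HF. Its difference of 1.89 ± 0.47 (95% interval 0.88 to 2.90) did not pass the threshold (adjusted p 0.168), although its groups did not overlap. Six4 had 6.68, 6.82, 5.76 and 5.81 in TEC against 5.53 and 5.52 in HF, with the embryonic clones the higher TEC cultures. The embryonic clone was also the highest ungrafted TEC culture, at 6.91. The embryonic clones of the second transplantation were the highest and the lowest of their group, at 6.71 and 5.44. A link with donor stage was not tested.

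Genes that mark working thymic epithelium were not separated in that direction. Foxn1, which drives thymic epithelial maturation and also acts in hair follicles, had 5.93, 5.75, 5.89 and 5.73 in TEC against 6.15 and 6.05 in HF, a difference of -0.27 with a 95% interval of -0.71 to 0.16. Of 20 genes of thymic epithelial function, 18 were measured, 0 were called, 1 was higher without overlap and 7 were lower, and after quantile normalization these were 2 and 1. The thymoproteasome subunit gene Psmb11 had 3.93 to 4.29 in TEC against 4.14 and 4.52 in HF, and the chemokine gene Ccl25 had 3.26 to 3.52 against 3.41 and 3.73. Aire, which lets thymic cells show tissue antigens, had 5.71 to 6.15 in TEC against 6.15 and 6.20 in HF. The member higher without overlap was the cathepsin gene Ctsl, with 11.49, 11.68, 10.61 and 11.75 in TEC against 10.59 and 10.56 in HF. The defining genes Foxn1, Psmb11, Ccl25 and Aire did not place the grafted TEC cultures above HF. In ungrafted TEC these 4 genes averaged 5.84, 4.03, 3.45 and 5.80, against 5.58, 4.03, 3.49 and 6.01 in ungrafted HF. Psmb11 and Ccl25 read near the bottom of the array scale in both tissues. The values thus do not show whether thymic function changed with grafting.

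Neither follicle list gave a call, though the hair shaft list held more genes lower in TEC than the share of all probe sets. Of 20 genes of follicle stem cells and placodes, 11 were measured on 13 probe sets, 0 were called, and 1 was higher and 3 lower without overlap. Lgr5, a stem cell receptor of the Wnt pathway, had 3.74, 3.71, 4.59 and 3.88 in TEC against 5.38 and 4.30 in HF, so Clone_57 lay within the HF range. The 2 arrays of a culture differed by as much as 1.49 for Lgr5, more than the size of its group difference of -0.86, so this range is not firm. Lhx2, a transcription factor of follicle stem cells, had 7.57, 5.52, 6.43 and 6.62 in TEC against 7.13 and 7.38 in HF, and Clone_217 was the highest of all 6. Krt15, a keratin of follicle bulge cells, had 11.13, 11.13, 8.96 and 12.39 in TEC against 8.81 and 9.45 in HF, so it tended the other way in 3 of the 4 TEC cultures. Of 24 measured hair shaft and inner root sheath genes, 10 were lower and 1 higher without overlap, 0 were called, and the median was -0.23. On the quantile-normalized scale 8 were lower and 2 higher. The median signal of this list was 5.11 in TEC and 5.43 in HF. Of all probe sets with a mean of 4 to 6, 36.5% were lower without overlap as deposited and 17.6% after quantile normalization. Msx2, a homeobox gene of the hair matrix, had the largest difference there, -1.25 ± 0.36 (adjusted p 0.179), with 4.96, 3.93, 4.13 and 5.07 in TEC against 6.19 and 5.35 in HF.

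All 6 cultures carried a basal epithelial profile at similar levels. Krt14, the basal keratin, had 13.14 to 13.22 in TEC against 13.26 and 13.28 in HF, a difference of -0.09 with a 95% interval of -0.31 to 0.12. Its sign turned after centring, when the values differed by 0.04. Tp63, the transcription factor of stratified epithelia, had 9.10 to 9.54 in TEC against 9.13 and 9.57 in HF. Of 14 measured basal and hemidesmosome genes 0 were called, with 1 higher and 2 lower without overlap. Krt17, a keratin of appendages and wounded skin, had 12.07 to 12.31 in TEC against 12.72 and 12.80 in HF, a difference of -0.57 ± 0.19 (adjusted p 0.213).

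Simple epithelial genes were the list most shifted upward in TEC. Of 20 probe sets for 17 genes, 6 were higher and 0 lower without overlap, 0 were called, and the median difference was 0.53 grafted and 1.48 ungrafted. The ungrafted median is not firm, as the 2 ungrafted HF cultures differed. Cldn4, Epcam and Elf3 read 8.31, 7.64 and 4.30 in YR219P5_Bulk_V but 11.56, 9.73 and 7.14 in YR219P5cl7. Krt7 and Krt19 were higher in YR219P5_Bulk_V, at 8.92 and 8.41 against 8.22 and 5.49. Both Krt8 probe sets were higher in grafted TEC than in grafted HF, by 3.76 ± 0.78 and 2.82 ± 0.66 (adjusted p 0.134 and 0.159). Without Clone_57 both passed, at differences of 4.46 and 3.39 and adjusted p of 0.0178 and 0.0356. The 3 Krt18 probe sets disagreed in size, with differences of 1.39, 0.67 and 0.31 and 0 calls, so this gene has no settled value. Elf3, an epithelial transcription factor, had 10.75, 10.97, 9.10 and 11.05 in TEC against 8.22 and 8.84 in HF. Prom1 had 6.32, 9.97, 6.54 and 6.23 against 4.50 and 4.73, with Clone_218 far above the other TEC cultures. Epcam and Cdh1, adhesion genes shared by many epithelia, had differences of 0.02 ± 0.41 and 0.07 ± 0.27. Cdh1 and the Krt18 probe set at 0.31 are among the 6 higher without overlap, so that count includes small differences.

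Genes of epidermal differentiation were split. Of 24 measured, 0 were called, 2 were higher and 5 lower without overlap, and the median was -0.16. Krt13, a keratin of internal stratified epithelia such as oesophagus, had 9.66, 10.41, 8.87 and 11.27 in TEC against 6.51 and 7.53 in HF, a difference of 3.03 ± 0.76 (adjusted p 0.168). Krt10, the keratin of suprabasal epidermis, had 5.73, 4.62, 6.71 and 5.51 in TEC against 7.06 and 8.28 in HF, a difference of -2.03 ± 0.82 (adjusted p 0.251). Sbsn, a secreted epidermal protein gene, had 7.50, 5.14, 5.71 and 6.50 in TEC against 7.51 and 8.22 in HF. Among 25 probe sets of stratified epithelial transcription factors 2 were higher and 4 lower without overlap. Bhlhe41, a clock-linked repressor, had 4.72, 3.71, 5.10 and 3.68 in TEC against 5.90 and 5.66 in HF, a difference of -1.47 ± 0.54.

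**Figure D5:**
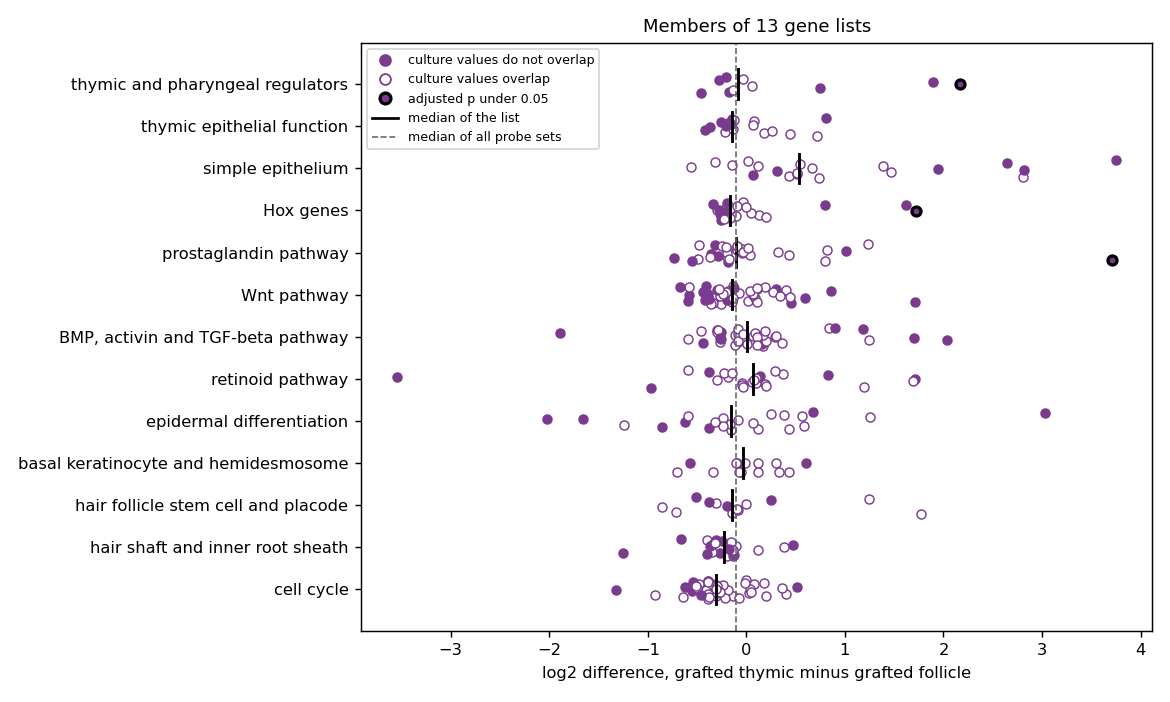
Log2 difference between grafted TEC and grafted HF for each measured probe set of 13 gene lists, with filled points where the culture values do not overlap, thick black rims where the adjusted p was under 0.05, and a black bar at the median of the list. The dashed line is the median of all probe sets, -0.11, and the simple epithelium list has its median farthest to the right, at 0.53.

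Position genes were not shifted as a family. Of 22 measured Hox genes, 1 was called (Hoxa5), 3 were higher and 7 lower without overlap, and the median was -0.17. The 3 higher ones were Hoxa5, Hoxa2 and Hoxa7. After quantile normalization 5 were higher and 4 lower, with Hoxa4 and Hoxb2 added to the higher ones. Hoxa2 had 5.27, 5.66, 5.12 and 6.46 in TEC against 4.07 and 3.94 in HF, a difference of 1.62 ± 0.38 (adjusted p 0.159). Hoxa7 had 5.77, 6.49, 6.69 and 6.74 in TEC against 5.65 and 5.60 in HF, a difference of 0.79 ± 0.25 (adjusted p 0.199). Hoxa4, between them, had 5.57 to 5.87 against 5.47 and 5.58, and its groups overlapped on the deposited scale. Genes of the HoxB and HoxD clusters differed by no more than 0.34 in either direction.

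The prostaglandin genes around Ptgs1 gave no other call. Of 29 probe sets for 24 genes, Ptgs1 was the only call, 2 were higher and 6 lower without overlap, and the median was -0.11, equal to that of all probe sets. After quantile normalization the balance turned, with 6 higher and 2 lower. Ptges, the microsomal PGE2 synthase, had 8.94, 8.90, 8.84 and 9.11 in TEC against 7.45 and 8.42 in HF, a difference of 1.01 ± 0.28 (adjusted p 0.173). Ptgs2, the inducible cyclooxygenase, had 5.66, 8.91, 6.92 and 6.68 in TEC against 5.61 and 6.0 in HF, so Clone_217 lay within the HF range. Pla2g4a, the phospholipase that frees arachidonic acid, had 6.95, 7.52, 7.92 and 6.87 in TEC against 8.18 and 7.92 in HF, and Clone_57 lay just below the lower HF value. Hpgd, which degrades prostaglandins, was at 9.48 in Clone_907 and between 4.81 and 6.34 in the other 5 cultures.

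Signalling genes gave 0 calls, with single ligands and receptors far apart. Of 47 Wnt pathway probe sets 0 were called, 5 were higher and 13 lower without overlap, and after quantile normalization these were 7 and 7. The ligand gene Wnt7b had 9.44, 10.42, 9.97 and 9.56 in TEC against 8.20 and 8.07 in HF, a difference of 1.71 ± 0.40 (adjusted p 0.159). Wnt5a had 7.82 to 8.21 in TEC against 6.99 and 7.40 in HF, and the receptor gene Fzd2 7.50 to 7.87 against 8.44 and 8.19. Of 37 BMP, activin and TGF-beta probe sets 0 were called, with 5 higher and 6 lower, and 8 and 2 after quantile normalization. The receptor gene Bmpr1b had 6.34, 7.24, 6.18 and 6.15 in TEC against 4.89 and 4.66 in HF, a difference of 1.70 ± 0.38 (adjusted p 0.134). Bmp3, a BMP ligand that can oppose other BMPs, had 6.25, 7.17, 6.27 and 7.62 against 4.71 and 4.88. Tgfb3, a TGF-beta ligand, had 5.42, 6.70, 7.08 and 5.69 against 8.31 and 7.93, with Clone_57 the TEC culture nearest HF.

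Smaller lists gave 0 calls as well. In the EGF family the ligand gene Ereg had 7.80, 8.44, 8.08 and 8.83 in TEC against 7.51 and 6.71 in HF, and the median of the 13 members was 0.39. Of 23 Notch and 10 Hedgehog genes, 0 were higher without overlap, and 7 and 3 were lower, all by less than 0.6. After quantile normalization 4 and 2 were lower and 0 higher. The largest Notch differences were upward but with overlap, at 0.78 ± 0.32 for Dll1 and 0.72 ± 0.29 for Notch1. In the retinoid list, 3 of 24 were higher and 3 lower without overlap. Lrat was the largest, and Dhrs9, a retinol dehydrogenase, had 7.0, 8.64, 7.23 and 7.75 in TEC against 5.91 and 5.98 in HF, a difference of 1.72 ± 0.47 (adjusted p 0.168). Of 34 probe sets of lipid synthesis 3 were higher and 5 lower.

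Immune genes other than RT1-T24-1 were not called. The MHC class I and immunoproteasome list had 2 of 21 probe sets higher and 1 lower without overlap. MHC class II had 0 higher and 6 lower of 13, or 0 and 3 after quantile normalization, with the invariant chain gene Cd74 at 5.22, 7.10, 5.31 and 5.97 in TEC against 6.38 and 6.15 in HF. Of 31 interferon response genes 3 were higher and 2 lower, or 6 and 1 after quantile normalization. Ifit2, an interferon-induced RNA-binding protein gene, had 5.58, 8.24, 5.33 and 6.03 in TEC against 4.22 and 3.84 in HF. Of 36 inflammatory and wound genes 5 were higher and 2 lower, among them the neutrophil chemokine gene Cxcl2 with 6.51, 6.04, 7.19 and 6.91 against 5.95 and 4.44. Of 24 p53 and stress probe sets 4 were higher and 3 lower, and Nupr1, a stress-induced chromatin protein gene, had 8.84, 8.97, 7.62 and 7.59 in TEC against 9.84 and 10.71 in HF.

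The cell cycle list had a median of -0.31, with 1 of 43 probe sets higher, 6 lower and 0 called. Ccne1, cyclin E1, had 6.26, 6.47, 7.31 and 7.02 in TEC against 8.71 and 7.47 in HF, a difference of -1.33 ± 0.43 (adjusted p 0.202). The mitotic genes Ccnb1, Bub1 and Cdc20 were lowest in Clone_907, at 9.93, 8.22 and 9.63. Ccnd1, cyclin D1, was the one higher, with 11.79 to 12.15 in TEC against 11.50 and 11.55 in HF. The growth state of the cultures at harvest is not given in the labels, and its part in any result was not tested.

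Markers of other cells that a culture could hold gave 0 calls in any list. The 27 fibroblast and feeder probe sets had 2 higher and 4 lower without overlap (3 and 3 after quantile normalization), and their log2 signals summed to between 159.6 and 165.9 in TEC cultures against 162.2 and 166.8 in HF cultures. Lum, Dcn and Pdgfra, which mark fibroblasts, lay between 2.54 and 4.96 in all 6 cultures, while Col1a1 lay between 6.58 and 6.98. Vim, an intermediate filament gene of mesenchyme that cultured epithelial cells can also carry, had 10.25, 9.87, 9.90 and 8.0 in TEC against 11.38 and 10.35 in HF. Rat probes read mouse RNA only in part, so these sums do not separate feeder from rat cells, and the part of either in the results was not tested. Among 17 haematopoietic markers 2 were higher and 5 lower (3 and 2 after quantile normalization), with the defining genes Ptprc and Cd3e between 3.35 and 3.88 in all 6. Cd68, a lysosomal gene of macrophages and other cells, had 7.54, 7.42, 5.57 and 7.92 in TEC against 5.43 and 5.35 in HF.

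The remaining marker lists had median log2 signals of 3.63 to 4.80 in TEC and 3.78 to 5.06 in HF. Few of their genes were higher in TEC. Without overlap, melanocyte markers had 0 higher and 4 lower of 8, endothelial markers 2 and 4 of 11, nerve and glial markers 1 and 2 of 10, muscle markers 0 and 3 of 11, and parathyroid and thyroid markers 0 and 6 of 11. After quantile normalization the counts were 0 and 2 for melanocytes, 2 and 2 for endothelium, 1 and 1 for nerve and glia, 1 and 3 for muscle, and 0 and 3 for parathyroid and thyroid. The melanocyte genes Tyr and Mlana lay between 2.94 and 3.93 in all 6 cultures and the endothelial genes Pecam1 and Cdh5 between 4.22 and 5.18. Summed log2 signals of the parathyroid and thyroid list were 49.3 to 51.2 in TEC against 53.3 and 54.0 in HF, and those of the melanocyte list 29.9 to 32.2 against 33.0 and 34.4. Of all probe sets, 20.8% with a mean under 4 and 36.5% with a mean of 4 to 6 were lower without overlap as deposited. After quantile normalization these shares were 12.2% and 17.6%. Fewer cells of a type, less RNA per cell and the array-wide shift at low signal cannot be told apart in such sums.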

How the data were processed

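RNA of 16 cultures was measured on Affymetrix rat gene arrays, 2 per culture. The authors deposited log2 signals; the submitters' processing notes list RMA and Affymetrix Expression Console, with no version. That the scale is log2 was inferred from its range (1.53 to 14.0). Arrays have no count depth, and the number of cultures limits precision. Of 29215 probe sets, the 15316 with 1 gene symbol (14511 genes) were tested, with no filter on level; 13582 had no listed gene and 317 had several. Names come from the platform annotation.

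Both arrays of a culture were averaged. limma 3.58.1 (R 4.3.3; lmFit, eBayes) was fitted to the 16 culture means with 5 groups, and p-values were adjusted by Benjamini-Hochberg over all 15316, with a threshold of 0.05. The labels do not say how separate the cultures of a group are, so p-values measure the spread between these cultures, which may be partly technical. Non-overlap means that every TEC value lay above, or below, every HF value. The code was tested on simulated data.

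Named genes were the 12 largest non-overlapping calls in each direction (11 passed), up to 4 calls per list, a panel of 18 genes, the 5 smallest p of the difference of differences, and up to 5 in each direction called in both comparisons. Other genes were named after their values were seen. The cultures were grouped by label alone, but the choice of this comparison, and the panel and 30 lists, were made with earlier results of these data known. Alternatives changed the unit, scaling, filter, variance model and cultures. Promoters come from the RefSeq table of GRCr8; those of Isl1, Ptgs1 and Lgals9 matched by symbol.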

Additional observations from a re-analysis of the deposited data

Results flagged for a closer look

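In 4 of 93 groups of 4 TEC cultures, 1 culture lay far from the others by Dixon's ratio of its gap to the range, and chance alone marks about 1 group in 20. Among grafted TEC cultures, Lgals7 had a log2 signal of 6.94 in Clone_218, against 11.18 to 11.44 in the other 3, and Vim had 8.0 in Clone_907, against 9.87 to 10.25. Isl1 had 7.04 in Clone_354 after the second transplantation, against 6.06 to 6.20 in the other 3 cultures of that group. A Krt18 probe set had 5.65 in ungrafted PRE16cl11_VII, against 5.32 to 5.34.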

How the results depend on the processing

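Counts of calls moved with the unit and the cultures, and the causes were not tested unless stated. With arrays as the unit and the culture as a random block, 249 probe sets were called between grafted TEC and HF (9 of the 11 among them), 977 between ungrafted ones and 43 for the difference of differences. With array number added as a replicate block these were 219, 944 and 34. Array numbers name repeat arrays of a culture and pair no cultures. Fits with arrays as the unit use repeat arrays to estimate the spread, with a correlation shared by all probe sets. Their larger counts are therefore not firmer than those from culture means. With only the groups compared in the fit, the grafted count was 0, with fewer cultures to estimate the spread. After quantile normalization it was 7, and with array 1 of each culture alone it was 1. With array 2 alone the difference of differences called 1. Clonal cultures alone, which are fewer, gave 0 grafted and 4 ungrafted calls. Leaving out 1 culture gave 0 to 12 grafted calls, 18 to 375 ungrafted calls and 0 to 75 for the difference of differences. Filters at a mean of 4 or 5, a trended variance, averaged probe sets and leaving out array 1 of YR219P5_RC gave 9 to 11 grafted calls. Testing all probe sets of the array, an alternative chosen after seeing the data, gave 16, and centring without that array, also chosen after seeing the data, gave 11. All 11 called genes kept their sign in every alternative that tested them. With 2 HF cultures, no count of calls is firm, and low signals limit Chrna2.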
